A study of Mus musculus with 6 samples.

Results

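The genes described here are 10 genes of Nodal and activin signalling, chosen by name: the ligand genes Inhba, Inhbb, Gdf3 and Nodal, the receptor gene Acvr2b and the co-receptor gene Tdgf1, and the inhibitor genes Fst, Lefty1, Lefty2 and Smad7. They were followed in mouse embryonic stem (ES) cells on 3 arrays of cells given a shRNA against Ep400 (shEp400) and 3 arrays of cells labelled only as control. The product of Ep400 is a chromatin remodelling ATPase that works within the Tip60-p400 complex. Both groups were ES cells grown on mitomycin C-treated mouse embryonic fibroblasts (feeder cells) with 15% serum and LIF. Cells were electroporated with a pHYPER shRNA vector, puromycin was applied from 24 h after transfection for 48 h, and total RNA was then extracted, with no step to remove feeder cells described. The labels do not name the ES cell line, the sequence in the control vector or separate cultures, so the p-values rest on the spread between these samples alone, and that spread may be technical.

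Of the 10 genes, 9 had a probe listed in the platform annotation, and 10 probes in all read them among 45281 on the array. Nodal had 2 probes and each other listed gene had 1. Inhbb, which encodes the beta B subunit of activin, had no listed probe and was not analysed here. Smad7, an inhibitory SMAD of the cell interior, had a probe above background (detection p under 0.01) on 0 of 3 shEp400 arrays and 1 of 3 control arrays, so it was not tested. The remaining 8 genes were tested among 9736 genes whose probe was above background on at least 3 of the 6 arrays. Fst met that filter through its shEp400 arrays alone, since its probe was above background on 3 shEp400 arrays and 0 control arrays, so a difference was built into its entry.

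Nodal, Gdf3 and the activins are secreted TGF-beta family ligands. They bind type II receptors such as Acvr2b together with the type I receptors Acvr1b or Acvr1c, and Nodal and Gdf3 also need a co-receptor such as Tdgf1 (Cripto), while activins do not. The receptors phosphorylate Smad2 and Smad3, which enter the nucleus with Smad4 and act there with DNA-binding partners such as Foxh1. Follistatin, the product of Fst, traps activins, and the Lefty proteins block Nodal signalling. Lefty1, Lefty2 and Nodal are themselves classical targets of the pathway, which in mouse ES cells keeps Lefty genes active and in the embryo patterns mesoderm, endoderm and the left-right axis.

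The activin subunit gene Inhba and the activin antagonist gene Fst were higher in shEp400 cells, while Gdf3, Lefty1, Acvr2b and Tdgf1 were lower. Nodal and Lefty2 did not pass the test. Thus 2 genes rose, 4 fell and 2 were not called among the 8 tested, at a limma adjusted p under 0.05 over all genes, and 1 of the 2 rises is that of Fst, with the built-in difference just described. In the same comparison 43.7% of all tested genes were called, 20.6% higher and 23.1% lower, so a call by itself sets no gene apart here. With cyclic loess normalization 59.4% of calls over all genes were higher and with 75th percentile scaling 39.1%, against 47.2% with the quantile normalization used. The groups did not overlap for 7 of the 8 genes, 3 with every shEp400 value above and 4 with every one below. Fst is 1 of those 3, with the same built-in difference, and it also counts in the median that follows. Over all tested genes the groups did not overlap for 55.5% (25.1% above and 30.3% below). The median log2 change of the 8 genes was -0.74, and that of all genes was -0.06. By log2 change Inhba ranked 9 of 9736 counted from the largest rise and Gdf3 ranked 2 counted from the largest fall. The members were chosen with earlier results of these data known, so these ranks and the median may reflect that choice.

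**Figure D1:**
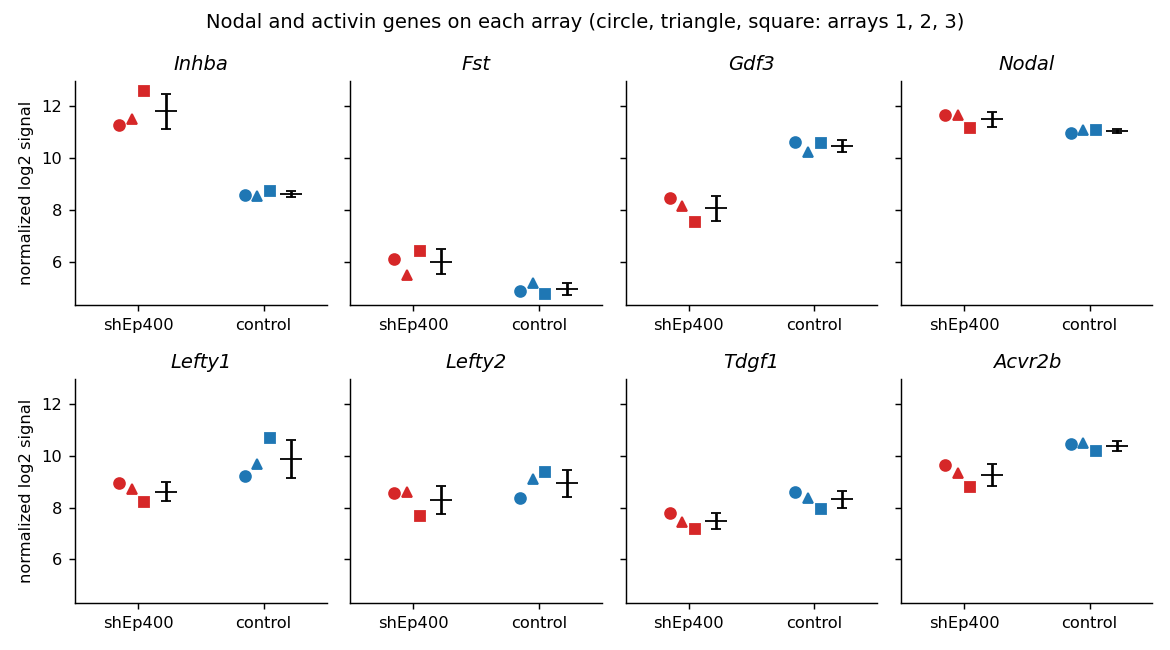
Normalized log2 signal of the 8 tested genes on each array, shEp400 left and control right, with 1 marker shape per array and the group mean ± SD (n = 3) beside the points. Inhba and Gdf3 show the widest gaps between groups, Lefty1 has a wide spread among control arrays, and Lefty2 is the gene whose groups overlap.

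Arrays had between 15441 and 17337 probes above background, and the upper quartile of the raw signal was between 141 and 195. All 6 arrays lay on 1 slide with the groups in separate positions, and the group and the position on the slide cannot be told apart. Ep400 itself had normalized log2 signals of 8.88, 9.11 and 9.14 in shEp400 cells, against 9.72, 9.58 and 9.56 in control cells (log2 change -0.58, SE 0.16, limma adjusted p = 0.0159). Ep400 had 3 listed probes, and these values are from the brightest that met the detection filter. The mean of those that met it gave the same log2 change, -0.58. Ep400 was called in 13 of 15 other settings, but neither with cyclic loess normalization (log2 change -0.42) nor without control replicate 1. The ES cell genes Pou5f1, Nanog and Sox2 were above background on all 6 arrays. Sox2 fell (log2 change -1.60, SE 0.28, limma adjusted p = 0.00144), and the values were -0.49 for Pou5f1 (adjusted p = 0.112) and -0.30 for Nanog (adjusted p = 0.147). In the 15 other settings Nanog was called lower in 4 and Pou5f1 in 3. Sox2, Pou5f1 and Nanog each had 2 probes. The mean of both probes gave a log2 change of -1.22 for Sox2, -0.57 for Pou5f1 and -0.55 for Nanog. With that mean Sox2 and Nanog were called lower and Pou5f1 was not called.

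Genes listed as markers of the feeder fibroblasts were mostly higher in shEp400 cells, and whether the amount of feeder cells differed was not tested. Of 24 such markers 19 were tested, of which 16 rose and 3 did not pass, and their summed normalized signal was 30905 to 43308 on shEp400 arrays and 6653 to 7675 on control arrays. Acta2, a contractile gene, weighed most in that sum, with a mean log2 signal of 13.81 in shEp400 cells and 10.77 in control cells. The probes of Postn, Fap and Col5a2 did not meet the detection filter. Of the defining fibroblast markers, Col1a1 (log2 change 2.93), Dcn (2.56) and Thy1 (1.29) rose. Lum (0.91, adjusted p = 0.135) and Col1a2 (0.55, adjusted p = 0.054) did not pass, and both probes of Col3a1 were above background on at most 1 array. Of 13 primitive endoderm markers 10 were tested and 6 rose, with a summed signal of 3962 to 5604 on shEp400 arrays and 1659 to 1987 on control arrays. Gata6 (log2 change 2.45) and Sox17 (1.46) rose. Sox17 was above background on 1 of 3 control arrays, and its log2 change was 0.54 without background correction. Sox7 had a log2 change of 0.63 (adjusted p = 0.0707), and the probe of Gata4 was above background on 0 of 6 arrays. Amn (-0.54, adjusted p = 0.054), Hnf4a (-0.39) and Lama1 (-0.16) went the other way and did not pass. The other rises were those of Col4a1 (1.78), Col4a2 (2.57), Dab2 (1.12) and Pdgfra (1.54). Pdgfra is also among the feeder markers, and Col4a1 and Col4a2 weighed most in the sum on shEp400 arrays. Of 10 ES cell markers 4 fell and 1 rose, with a summed signal of 53965 to 75690 on shEp400 arrays and 73222 to 76439 on control arrays. Dppa5a alone, near the top of the signal range, made up 49.3% to 55.3% of that sum, and without it the sum was 24101 to 38342 on shEp400 arrays and 35345 to 38563 on control arrays. In such bulk RNA, fewer cells of a type and less RNA per cell cannot be told apart. The part of these marker differences in the results on the pathway was not tested.

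Inhba encodes the beta A subunit, whose homodimer is activin A. Its raw signal intensities were 2561, 2758 and 7460 on shEp400 arrays 1, 2 and 3, against 376, 423 and 517 on the control arrays. After background correction and quantile normalization its log2 signals were 11.29, 11.52 and 12.58 in shEp400 cells, against 8.56, 8.52 and 8.73 in control cells. Every shEp400 array lay far above every control array, and array 3 stood above the other shEp400 arrays. Inhba rose 9.15-fold, a log2 change of 3.19 (SE 0.30, limma adjusted p = 7.23e-05). Inhba was called in all 15 other settings tried, with log2 changes between 2.80 and 3.45, the lowest without shEp400 replicate 3.

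The non-member genes whose 6 values, centred on their own control mean, lay closest to those of Inhba were Serpinb2, a plasminogen activator inhibitor, Gadd45g, a stress-induced gene, at a Euclidean distance of 0.65 log2 units, and Itpripl2 at 0.66. Serpinb2 was above background on 0 control arrays, so its distance is not given and its place is open to the background correction. The log2 changes of Gadd45g and Itpripl2 were 3.02 and 2.91.

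Gdf3, a Nodal-like ligand that is made by pluripotent cells and can also hold back BMPs, had raw signal intensities of 461, 362 and 355 on the shEp400 arrays, against 1345, 1195 and 1733 on the control arrays. Its normalized log2 signals were 8.47, 8.16 and 7.54 in shEp400 cells, against 10.62, 10.22 and 10.60 in control cells. All shEp400 arrays lay well below all control arrays, with array 3 lowest. Gdf3 fell 5.35-fold, a log2 change of -2.42 (SE 0.24, limma adjusted p = 0.000102), and it was called in all 15 other settings, between -2.63 and -2.07. Its closest non-member patterns were those of Cdca7, Actn3 and Fgf17, at distances of 0.45, 0.57 and 0.62.

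Nodal, the ligand that gives the pathway its name, had normalized log2 signals of 11.66, 11.67 and 11.15 in shEp400 cells, against 10.96, 11.09 and 11.08 in control cells. The groups did not overlap, but shEp400 array 3 lay just above the highest control array while the other shEp400 arrays stood apart. The log2 change was 0.45 (SE 0.19) and did not pass the test (limma adjusted p = 0.0736). The second Nodal probe was dimmer, with log2 signals of 8.90, 8.55 and 8.48 in shEp400 cells, against 8.21, 8.28 and 8.29 in control cells. Taken on its own it had a log2 change of 0.39 (limma adjusted p = 0.107 over all probes), so both probes gave a difference of the same sign and like size. Nodal was called in 6 of the 15 other settings. Its log2 change was 0.62 without shEp400 replicate 3 (adjusted p = 0.0156), 0.59 with cyclic loess normalization (adjusted p = 0.0223) and 0.19 with 75th percentile scaling (adjusted p = 0.454).

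Acvr2b, the type II receptor shared by activins, Nodal and several other ligands, had log2 signals of 9.63, 9.33 and 8.79 in shEp400 cells, against 10.46, 10.49 and 10.17 in control cells. All shEp400 arrays were below all control arrays. Acvr2b fell 2.18-fold, a log2 change of -1.13 (SE 0.22, limma adjusted p = 0.00306), called in all 15 other settings. The related receptor gene Acvr2a had 2 probes, both above background on 0 of 6 arrays.

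Tdgf1, the EGF-CFC co-receptor through which Nodal and Gdf3 signal, had log2 signals of 7.79, 7.45 and 7.18 in shEp400 cells, against 8.59, 8.38 and 7.96 in control cells. The shEp400 arrays were all lower, with a narrow gap between shEp400 array 1 and control array 3. The log2 change was -0.84 (SE 0.22), a 1.79-fold fall (limma adjusted p = 0.0126). The call was lost without control replicate 1 (log2 change -0.70, adjusted p = 0.0525). RefSeq lists the pseudogenes Tdgf1-ps1 and Tdgf1-ps2, whose transcripts the probe may also read. Its sister co-receptor gene Cfc1 had a probe above background on 0 of 6 arrays.

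Promoter sequence from RefSeq (GRCm38.p6) was matched by symbol for 5 of the 10 genes. The 250 bases before the annotated start are shown for Inhba, the gene with the largest rise, and for Tdgf1 and Acvr2b, the co-receptor and receptor genes that fell. They were searched on both strands for AATNNACA, a loose pattern for Foxh1, for CAGAC, the SMAD element, and for TGANTCA, the AP-1 site. Any base may stand at N, so a match to the Foxh1 pattern need not be a form that Foxh1 binds. Matches are in capitals.
Inhba, chr13:16011601-16011850, plus strand: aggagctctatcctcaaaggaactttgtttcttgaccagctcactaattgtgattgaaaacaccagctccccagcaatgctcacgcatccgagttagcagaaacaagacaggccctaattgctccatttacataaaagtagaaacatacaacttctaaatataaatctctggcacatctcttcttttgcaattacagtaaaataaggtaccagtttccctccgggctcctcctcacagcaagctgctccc
Tdgf1, chr9:110946159-110946408, minus strand: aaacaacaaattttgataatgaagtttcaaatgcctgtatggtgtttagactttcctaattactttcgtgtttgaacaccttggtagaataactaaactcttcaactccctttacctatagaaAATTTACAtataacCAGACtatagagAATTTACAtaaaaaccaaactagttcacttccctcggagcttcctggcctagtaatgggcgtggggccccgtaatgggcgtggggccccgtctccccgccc
Acvr2b, chr9:119401928-119402177, plus strand: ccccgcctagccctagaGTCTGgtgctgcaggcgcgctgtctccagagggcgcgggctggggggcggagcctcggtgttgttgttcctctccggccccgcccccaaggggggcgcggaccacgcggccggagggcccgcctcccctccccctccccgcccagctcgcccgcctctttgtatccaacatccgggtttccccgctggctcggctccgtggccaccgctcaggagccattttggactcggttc

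The Tdgf1 window held 2 matches to the loose Foxh1 pattern, which begin 127 and 101 bases before the start. Between them lay 1 SMAD match at 113 bases. None of the 3 matches overlapped another. The Acvr2b window held 1 SMAD match, on the opposite strand, 233 bases before the start. The Inhba window held 0 matches to any of the 3, and so did the Nodal window. Of 32851 RefSeq promoter windows of this length, 10.9% held the Foxh1 pattern, 42.2% the SMAD letters and 6.75% the AP-1 letters. A match to letters is not a bound site, and binding was not measured here.

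Fst encodes follistatin. Its raw signal was near background, and its normalized log2 signals were 6.10, 5.47 and 6.40 in shEp400 cells, against 4.87, 5.19 and 4.75 in control cells. All shEp400 arrays were above all control arrays, with array 2 closest to them. Because no control array read it above background, only a bound can be given. With the background correction used, Fst was at least 1.80-fold higher in shEp400 cells (limma adjusted p = 0.0065 for the measured means of 5.99 and 4.93). The bound took for each control array the higher of its own value and the lowest value above background. It does not hold for the other corrections, which gave smaller changes. The size depends on the background correction: the log2 change was 1.06 (SE 0.24) as fitted, 0.36 without background correction and 0.51 with normexp without negative controls. Since its entry depended on the shEp400 arrays, its call carries no weight beyond that bound.

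Lefty1, an inhibitor of Nodal, had log2 signals of 8.94, 8.70 and 8.20 in shEp400 cells, against 9.22, 9.70 and 10.67 in control cells. The shEp400 arrays were lower throughout, but the control arrays were spread widely (9.86 ± 0.74, SD, n = 3, against 8.61 ± 0.38, SD, n = 3, in shEp400 cells). The log2 change was -1.25 (SE 0.34), a 2.38-fold fall (limma adjusted p = 0.0143). The call was lost without shEp400 replicate 3 (log2 change -1.04, adjusted p = 0.0562). Without control replicate 3 it was kept, at a log2 change of -0.84.

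Lefty2, its close paralog, had log2 signals of 8.57, 8.62 and 7.68 in shEp400 cells, against 8.35, 9.10 and 9.36 in control cells. The groups overlapped, since control array 1 lay below shEp400 arrays 1 and 2. The log2 change was -0.65 (SE 0.31) and did not pass the test (limma adjusted p = 0.116), and it was called in 1 of the 15 other settings, without control replicate 1 (log2 change -0.94, adjusted p = 0.0351). Without shEp400 replicate 3 it was -0.34 (adjusted p = 0.369). In both Lefty genes control array 1 was the lowest and control array 3 the highest of the control arrays, whereas Gdf3 had control array 2 lowest and Tdgf1 had control array 3 lowest. The probe sequences were not used here, so reading of either gene's transcripts by the other gene's probe cannot be told apart from a shared difference.

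The shEp400 arrays did not depart from control equally. Array 3 lay furthest from the control mean for 7 of the 8 genes, and for Nodal it lay nearest. This array also had the most probes above background of the 6, 17337, and the highest raw upper quartile, 195, and the part of this in the values was not tested. Inhba stood 2.69, 2.92 and 3.98 above its control mean on shEp400 arrays 1, 2 and 3, and Gdf3 stood at -2.01, -2.32 and -2.93. The corresponding differences for Lefty1 were -0.92, -1.16 and -1.67, and those for Acvr2b were -0.75, -1.05 and -1.58. On the same arrays the median difference was 1.64, 1.93 and 2.05 for feeder markers and -0.19, -0.43 and -0.94 for ES cell markers, and over primitive endoderm markers it was 1.22, 1.49 and 1.17.

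**Figure D2:**
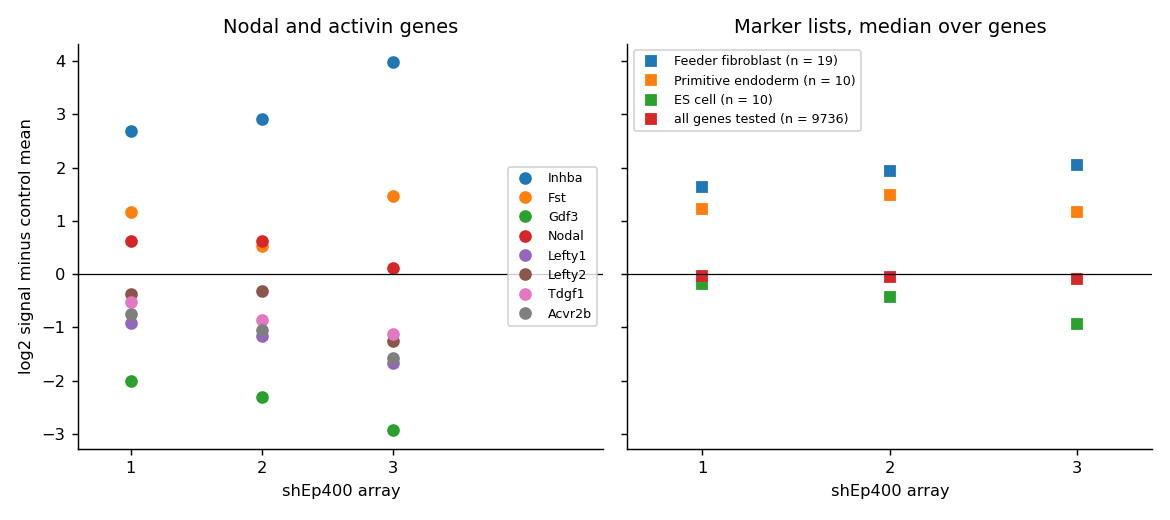
Left, log2 signal of each gene on each shEp400 array minus its control mean. Right, the median of the same difference over feeder fibroblast, primitive endoderm and ES cell markers and over all genes tested. Inhba and the feeder markers lie above 0 on all 3 arrays, Gdf3 lies lowest on each, and Nodal comes nearest to 0 on array 3.

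Other genes of the TGF-beta, activin and Nodal branch were taken from a list of 51, of which 28 were tested, 17 had a probe that did not meet the filter and 6 had no listed probe. Of the 28, 11 rose, 3 fell and 14 did not pass, against 20.6% higher and 23.1% lower over all genes, and their median log2 change was 0.08. By the brightest probe of each gene, the rises were led by Pmepa1, an inhibitor of the pathway that is itself induced by it. Next came the TGF-beta type II receptor gene Tgfbr2, Ccn2, a matrix-associated TGF-beta target, and the ligand gene Tgfb3. With the mean of all detected probes Pmepa1 did not lead. Its log2 change was then 1.62, against 2.58 for Ccn2, 2.37 for Tgfbr2, 2.09 for Tgfb3 and 1.87 for Ltbp1. The 3 falls were those of Otx2, Foxh1 and Gdf1.

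Among the other ligands Tgfb3 was read on 3 shEp400 arrays and 2 control arrays and rose 2.09 on the log2 scale (SE 0.23, limma adjusted p = 0.000148). Tgfb1 rose 0.98 (adjusted p = 0.00334). Gdf1, a partner of Nodal in heterodimers, had log2 signals of 6.61, 6.87 and 7.17 in shEp400 cells, against 7.55, 8.04 and 7.32 in control cells. It fell by 0.75 (adjusted p = 0.0216), a call lost without shEp400 replicate 1 or 2, without control replicate 2 and with cyclic loess normalization. The probe of Tgfb2 was above background on 0 of 6 arrays, as were those of the inhibin alpha gene Inha and of Inhbc and Inhbe.

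Among receptors Tgfbr2 averaged 9.59 ± 0.51 in shEp400 cells and 7.22 ± 0.21 in control cells (normalized log2 signal, SD, n = 3 each). The groups were far apart, and the log2 change was 2.37 (SE 0.25, limma adjusted p = 0.000116). The type I receptor genes gave no call: the log2 changes were -0.05 for Acvr1b (SE 0.19, adjusted p = 0.846) and 0.08 for Tgfbr1 (SE 0.20, adjusted p = 0.786). The change of Tgfbr2, which binds TGF-betas rather than activins or Nodal, was thus opposite in sign to that of Acvr2b. The test of that difference was not run, since the genes are read by different probes.

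Among the signal carriers Smad3 had log2 signals of 9.50, 9.94 and 9.99 in shEp400 cells, against 8.77, 8.65 and 8.41 in control cells, and rose 1.20 on the log2 scale (SE 0.19, limma adjusted p = 0.000953). Smad2 did not pass (log2 change -0.21, SE 0.15, adjusted p = 0.294), and Smad4 had no listed probe. Foxh1 was read on 2 shEp400 arrays and 3 control arrays, with log2 signals of 5.06, 5.66 and 4.96 in shEp400 cells, against 5.73, 6.55 and 6.70 in control cells. The groups were separate but close, and Foxh1 fell by 1.10 (SE 0.28, adjusted p = 0.0105).

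Of 6 tested intracellular inhibitors, Pmepa1 and Ski rose and 4 did not pass. Pmepa1 had log2 signals of 8.21, 9.30 and 9.62 in shEp400 cells, against 6.37, 6.61 and 6.67 in control cells (log2 change 2.50, SE 0.31, limma adjusted p = 0.000263). It was read by 2 probes, and the mean of both gave a smaller log2 change of 1.62. Of 4 tested extracellular inhibitors and processing genes 3 rose, and they are named here after their values were seen. Fstl3, a follistatin relative, was read above background on 3 shEp400 arrays and 0 control arrays, so that, as with Fst, a difference was built into its entry among the tested genes and into the counts of 3 and 11 that hold it. With the background correction used, its level in shEp400 cells was higher by at least 2.05-fold (limma adjusted p = 0.000542 for the measured means of 6.18 and 4.63). That bound does not hold without background correction, where its log2 change was 0.55. Ltbp1, which stores latent TGF-beta in the matrix, rose 1.87 on the log2 scale and the convertase gene Furin rose 1.39.

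Of the 11 lineage and other target genes 4 were tested, of which 1 rose, 1 fell and 2 did not pass. Ccn2 rose 2.34 on the log2 scale (SE 0.20, limma adjusted p = 5.22e-05), and Otx2, an early neural and epiblast regulator, fell by 1.34 (SE 0.26, adjusted p = 0.00273). The values were -0.22 for Gsc (adjusted p = 0.489) and -0.53 for Tgfbi (adjusted p = 0.0605). The mesendoderm genes Mixl1, Eomes, Foxa2 and Lhx1 had probes above background on 0 of 6 arrays. Without background correction the log2 changes were smaller by over 1.5 times for Tgfb3 (0.97), Tgfb1 (0.65), Tgfbr3 (0.29), Fstl3 (0.55), Ltbp1 (0.88), Foxh1 (-0.42), Otx2 (-0.78) and Gdf1 (-0.47), and each was still called. Tgfbr3, named here after its values were seen, rose 0.59 as fitted. Its call was lost without shEp400 replicate 3, control replicate 1 or control replicate 3. The feeder marker medians given above, 1.64 to 2.05 on the shEp400 arrays, stand beside the rises of Inhba, Tgfb3, Tgfbr2, Pmepa1, Ltbp1 and Ccn2, and their part in these rises was not tested.

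**Figure D3:**
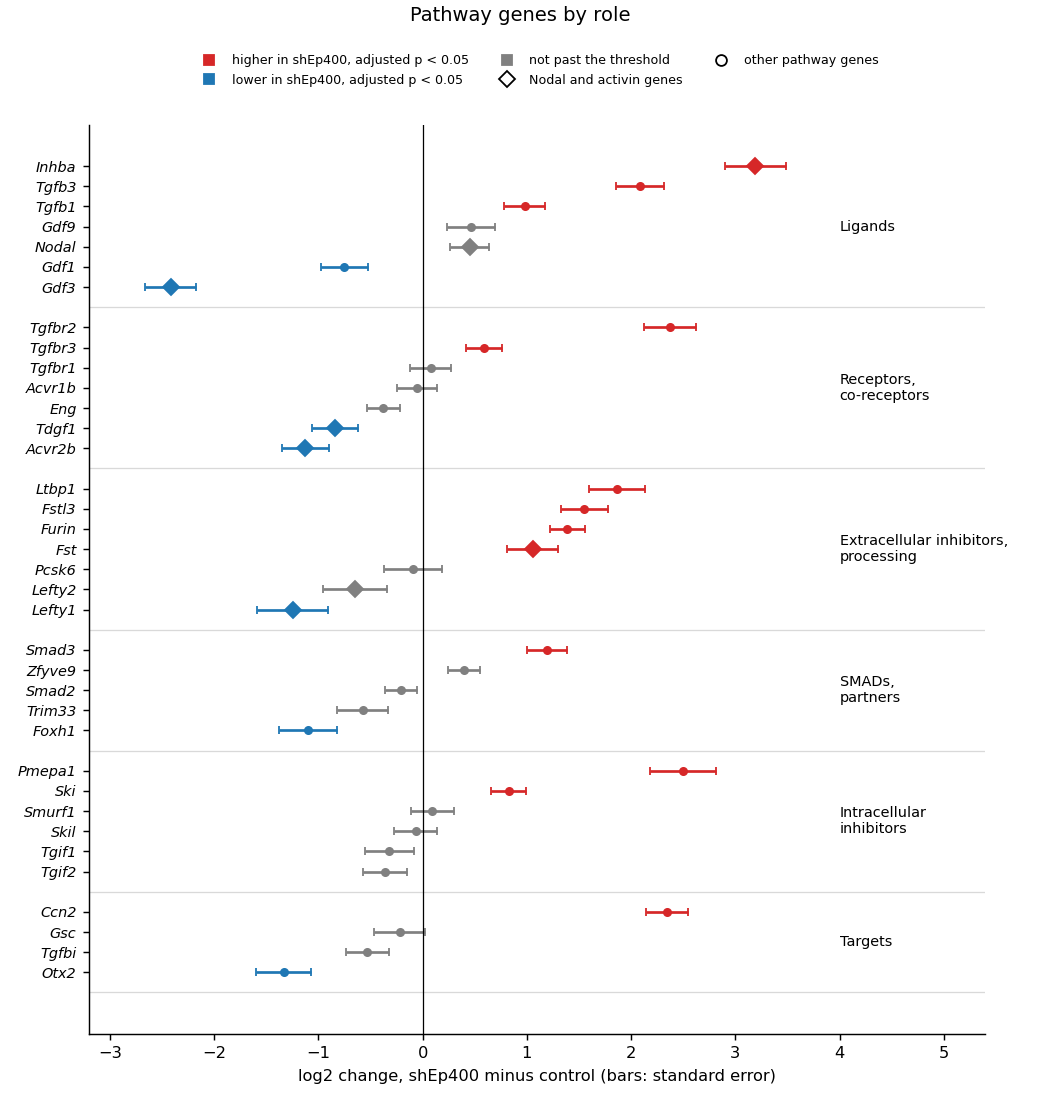
Log2 change, shEp400 minus control, with standard error bars for the 8 tested Nodal and activin genes (diamonds) and the 28 other pathway genes (circles), grouped by role. Red marks genes higher and blue genes lower in shEp400 cells at a limma adjusted p under 0.05, and grey marks genes that did not pass.

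**Figure D4:**
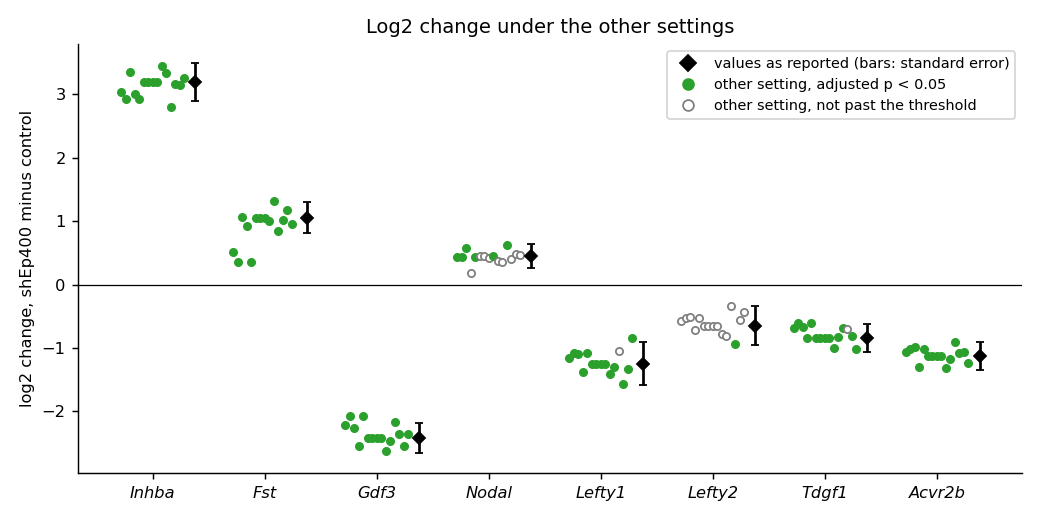
Log2 change of each of the 8 genes as reported (diamond, with standard error) and under each other setting tried (circles, filled where the adjusted p was under 0.05). No gene changed sign, Fst has its lowest values where the background was corrected differently or not at all, and Nodal and Lefty2 are mostly unfilled.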

How the data were processed

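Expression was measured on Illumina bead arrays, 1 per sample, in 3 shEp400 and 3 control samples. The deposited signal intensities were linear, not scaled between arrays and without background subtraction, as their values showed, and, per the file headers, a detection p-value stands beside each. Per the submitters' processing notes, GenomeStudio was used, with settings not stated there. The authors' processed matrix, linear intensities with a median of 114 on every array and the probe ranks of each array's own signal, served as an alternative.

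The platform annotation gave 1 symbol to 34885 probes, and 18 probes with several were left out. Log2 values came from neqc in limma 3.58.1 (R 4.3.3), with background estimated from the detection p-values, an offset of 16 and quantile normalization. Each gene was represented by its brightest probe among those passing a detection p of 0.01 on 3 or more arrays. Groups were compared with lmFit and eBayes, two-sided, with 4 residual degrees of freedom and Benjamini-Hochberg adjustment over 9736 genes. The number of arrays limits the precision. Values with ± are means and SD, and changes are shEp400 minus control with SE. The steps were also run on simulated data with known changes in far fewer genes than were called here. That run does not show how the normalization behaves where many genes change.

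The members, the lists and the rule for named genes were chosen with earlier results of these data known. All members were named. Other pathway genes were named by role (the type I and II receptors, SMADs, Foxh1 and TGF-beta ligands) and by the 4 largest called rises and up to 4 called falls. Others are listed where a probe was not above background, or are said to have been named after their values were seen. No genome build is named for the array, so gene coordinates are not reported. Promoter windows are RefSeq's.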

Additional observations from a re-analysis of the deposited data

How the results depend on the processing

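Of 119 values of the 8 genes under 15 other settings, 110 kept their direction and their side of the threshold, 2 lost the call, 7 gained one and 0 changed sign. The settings are not separate checks. The authors' processed values nearly repeated those without background correction, with 1964 genes higher and 2271 lower in both. Changing the detection filter, averaging probes or using limma-trend left the log2 change of members with 1 probe as it was. Losses were Lefty1 without shEp400 replicate 3 (log2 change -1.04) and Tdgf1 without control replicate 1 (-0.70). Gains were Lefty2 without control replicate 1 (-0.94) and Nodal with normexp without negative controls, without background correction and with the authors' processed values (0.44 each), with cyclic loess (0.59), with limma-trend and robust eBayes (0.45) and without shEp400 replicate 3 (0.62). Among probes detected on all 6 arrays Fst was not tested, which left 1 of the genes called higher. With normexp without negative controls 5 of the other pathway genes were lower, against 3. Leaving out 1 array gave 2 to 3 of the 8 genes higher and 3 to 4 lower, 10 to 11 other pathway genes higher and 2 to 4 lower, and 1580 to 2078 of all genes higher and 1599 to 2302 lower. The median change of all genes moved by 0.11 with cyclic loess and by -0.11 with 75th percentile scaling. Fst, Fstl3 and Foxh1 lie near background, where the correction sets the size of a change. No paired analysis was possible because the labels give no replicate numbers, and the numbers used here only name the arrays of a group in accession order.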
